A study of Homo sapiens with 6 samples.

Results

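The genes described here encode proteins of 4 DNA repair routes: mismatch repair, nucleotide excision repair, base excision repair with the repair of single-strand breaks, and the joining of broken ends. They are 37 of the 58735 rows of the count table, chosen by gene name from a list of repair proteins and not by a threshold on their values, though with earlier results of these data known. By role they are 5 mismatch repair genes, 10 nucleotide excision repair genes, 10 DNA glycosylases, 7 genes for the later steps of base excision repair and 5 end-joining genes. RNA was sequenced from ACHN cells, an established human kidney cancer line, wild-type in genotype per the labels, which call it clear cell renal cell carcinoma. The control libraries are labelled vehicle control, although the series text says that control cells received no drug, and the others are labelled as treated with curcumol, a sesquiterpenoid of Curcuma rhizomes. There were 3 libraries per group, described as independent biological replicates of this 1 line, and neither the dose nor the time of treatment is known from the labels. The series asked how curcumol changes glycolysis and malignant behaviour, and the repair genes were not named in its aims.

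Each repair route removes a different kind of damage. Mismatch repair corrects copying errors behind the replication fork, with MutS proteins that find the mismatch and MutL proteins that direct its removal. Nucleotide excision repair cuts out a short strand around bulky lesions such as those made by ultraviolet light. In base excision repair a glycosylase removes 1 damaged base, an endonuclease opens the strand, and a polymerase and a ligase close it. End-joining holds 2 broken ends with the Ku dimer and seals them with a ligase.

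The libraries held 16962012 to 17827433 counts, and the low-count filter kept 15160 genes, all 37 repair genes among them. Levels are given as CPM, counts per 1000000 counts of a library after TMM scaling between libraries. Change was widespread: 12076 genes, or 79.7% of those tested, passed an adjusted p of 0.05 in edgeR's quasi-likelihood test, 39.4% of genes higher and 40.3% lower in curcumol. The 12 kidney lineage markers summed to 4710 to 5080 CPM in control and 3170 to 3660 in curcumol. Among them PAX8 was present (189 to 197 CPM in control and 56.2 to 62.4 in curcumol) and fell. EPCAM and CDH1 did not pass, with CDH1 low (1.56 to 2.22 CPM in control and 1.15 to 1.33 in curcumol). EMX2 had at most 1 count in any library. CA9, a marker of clear cell carcinoma, had at most 1 count in a control library and 3 in a curcumol library. The 4 clear cell markers summed to 36.6 to 38.3 CPM in control and 96.2 to 113 in curcumol, where VEGFA and EGLN3 rose and NDUFA4L2 did not pass. The 5 leukocyte markers summed to 0 to 0.155 CPM in control and 4.74 to 5.53 in curcumol, nearly all of it CD14, with CD3E at 0 throughout. The 4 endothelial markers summed to at most 0.155 and 0.821 CPM, with KDR and PECAM1 at 0 in control. The 5 fibroblast markers summed to 7.07 to 8.29 CPM in control and 7.69 to 20.6 in curcumol, where COL3A1 (0 counts in each control library; 28, 58 and 23 in curcumol) and PDGFRB rose, COL1A1 fell, and COL1A2 had 70 counts in curcumol replicate 2 against 0 or 1 in every other library. The part of these markers in the results was not tested. In bulk RNA, fewer cells that express a gene and less of its RNA per cell cannot be told apart.

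Most repair genes were lower in curcumol-treated cells. Of the 37 genes 25 fell, 7 rose and 5 did not pass (edgeR, adjusted over all 15160 genes), where 40.3% of all tested genes fell and 39.4% rose. Their median log2 change was -0.58, beside -0.02 over all tested genes. A fall of at least 2-fold was seen for 13 of the 37, against 23.1% of all tested genes, and one of at least 4-fold for 5, against 8.19%, while no repair gene rose 4-fold (7.8% of all). A rise of at least 2-fold was seen for 3 of the 37, against 21.3% of all tested genes. The 3 curcumol libraries lay below all control libraries for the 25 genes that fell and above them for the 7 that rose, where 81% of all tested genes were separated, 41.1% lower and 39.8% higher. Under scaling by library totals, which moved the median of all genes to -0.28, 29 of the repair genes fell and 7 rose, where 80.4% of all genes passed, 48.6% of genes lower and 31.8% higher.

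**Figure D1:**
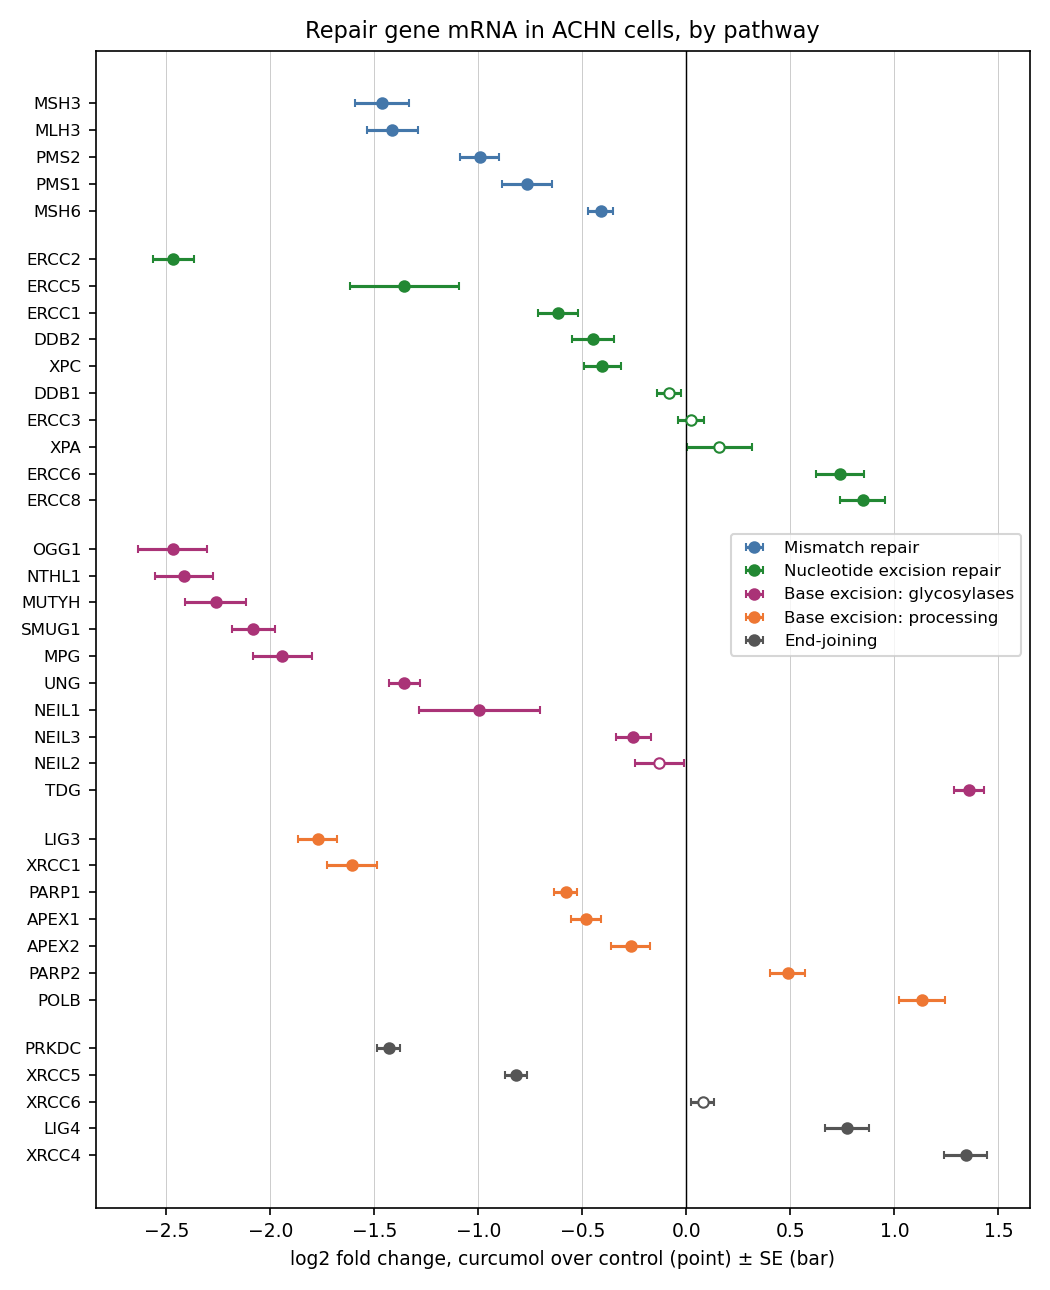
The horizontal axis is the log2 change of curcumol over control, each point is 1 of the 37 genes and each bar its standard error from edgeR with 3 libraries per group. Filled points passed an adjusted p of 0.05 and open points did not. The mismatch repair genes all lie left of 0, and the glycosylases span -2.47 for OGG1 to 1.36 for TDG.

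All 5 mismatch repair genes fell, with a median log2 change of -0.99, where 40.3% of all tested genes fell and their median was -0.02. MSH3, which pairs with its MutS partner to recognise insertion and deletion loops, had 18.9, 22.2 and 20.7 CPM in the control libraries and 6.73, 8.79 and 6.88 in the curcumol libraries. The lowest control library was more than 2-fold above the highest curcumol library. The log2 change of MSH3 was -1.46 ± 0.13 (SE, n = 3, adjusted p by edgeR = 9.83e-10). MLH3, a MutL protein that also acts in meiotic crossing over, had 21.4, 20.2 and 23.2 CPM in control and 7.05, 8.85 and 8.40 in curcumol, again with no overlap. Curcumol minus control was -1.41 ± 0.12 on the log2 scale (SE, adjusted p by edgeR = 6.52e-10).

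PMS1, another MutL protein, had 35.5, 32.7 and 43.6 CPM in control and 18.3, 22.2 and 25.1 in curcumol. It fell by 0.77 on the log2 scale (SE 0.12, adjusted p by edgeR = 9.46e-06) and had the widest spread of the group in control. PMS2, which carries the nicking activity of the main MutL dimer, fell by 0.99 (SE 0.10), but 11 pseudogenes named after it held 3224 counts in control and 3079 in curcumol, beside 2531 and 1049 for PMS2 itself. The division of reads between PMS2 and these copies is uncertain. MSH6, which recognises single-base mismatches, had the smallest change of the 5, from 198 ± 4.70 to 149 ± 7.71 CPM (SD, n = 3), a log2 change of -0.41 ± 0.06 (SE). Per kilobase of its main coding transcript MSH6 was the most abundant of the 5 in both groups, with 26.5 ± 0.629 CPM per kb in control and 19.9 ± 1.03 in curcumol (SD, n = 3). Its share of the 5 genes' summed level per kb went from 43.3% ± 1.01 to 53.5% ± 2.05.

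Nucleotide excision repair genes went both ways, with 5 of 10 lower, 2 higher and 3 that did not pass, shares near those of all tested genes for the lower ones (40.3%) and below them for the higher ones (39.4%). ERCC2 and ERCC3 encode the XPD and XPB helicases of the transcription factor TFIIH, which opens DNA around a lesion. ERCC2 had 46.8, 50.2 and 49.0 CPM in control and 8.58, 8.35 and 9.47 in curcumol, which leaves a wide gap between the groups. On the log2 scale the change was -2.47 ± 0.10 (SE, n = 3, adjusted p by edgeR = 1.61e-15). ERCC3 had 99.0, 103 and 96.2 CPM in control and 103, 97.9 and 102 in curcumol, so its groups overlapped. The groups differed by 0.02 ± 0.06 on the log2 scale (SE, adjusted p by edgeR = 0.766), but it stood at -0.24 and passed under scaling by library totals (adjusted p by edgeR = 0.00127).

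ERCC6 and ERCC8 rose. They encode the Cockayne syndrome proteins CSB and CSA, which act where RNA polymerase stalls at a lesion. ERCC8 had 13.9, 14.9 and 11.9 CPM in control and 25.8, 23.9 and 23.5 in curcumol, with the 3 curcumol libraries close together and well above control. Curcumol minus control was 0.85 ± 0.11 on the log2 scale (SE, n = 3, adjusted p by edgeR = 3.50e-07). ERCC6 had 10.2, 11.9 and 13.2 CPM in control and 19.7, 18.9 and 20.3 in curcumol, a log2 change of 0.74 ± 0.12 (SE, adjusted p by edgeR = 5.92e-06). With an offset for GC content, ERCC6 stood at 0.23 and no longer passed (adjusted p by edgeR = 0.0527), and ERCC8 stood at 0.50.

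XPC and DDB2, which detect lesions across the genome, fell. XPC, the damage sensor, fell by 0.40 (SE 0.09) and DDB2, which binds ultraviolet photoproducts, by 0.45 (SE 0.10) on the log2 scale. With the GC offset they stood at -0.23 and -0.26, and with library totals at -0.67 and -0.71, and passed in both. DDB1, the partner of DDB2 in a ubiquitin ligase, stood at -0.08 ± 0.06 (SE, adjusted p by edgeR = 0.187) and passed as lower under scaling by library totals (-0.35) and with the GC offset (-0.16). XPA, which checks the opened lesion, stood at 0.16 ± 0.15 (SE, adjusted p by edgeR = 0.353), and at -0.11 with library totals and -0.15 with the GC offset, without passing in either. Among genes for parts of the endonucleases that cut on either side of the lesion, ERCC1 fell by 0.62 (SE 0.10). It stood at -0.20 with the GC offset (adjusted p by edgeR = 0.0427). ERCC5, which encodes XPG, had 3.61, 3.92 and 4.49 CPM in control and 0.961, 1.82 and 1.89 in curcumol, a log2 change of -1.36 ± 0.26 (SE, adjusted p by edgeR = 7.90e-05). ERCC5 rested on only 15 to 87 counts per library and shares exons on its own strand with the readthrough gene BIVM-ERCC5 (63.2% of its exonic bases, 0 counts) and with BIVM (19.1%), and BIVM itself went from 2606 to 453 counts summed over the libraries of a group.

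The glycosylases held the widest range of change. Of 10 genes 8 fell, 1 rose and 1 did not pass, where 40.3% of all tested genes fell and 39.4% rose. The median log2 change of the 10 was -1.65, beside -0.02 over all tested genes. OGG1, which removes oxidised guanine, had 13.7, 13.3 and 13.1 CPM in control and 2.05, 2.26 and 2.90 in curcumol. The control libraries were nearly equal, and each was over 4-fold above every curcumol library. The log2 change of OGG1 was -2.47 ± 0.17 (SE, n = 3, adjusted p by edgeR = 9.64e-12). NTHL1, which removes oxidised pyrimidines, had 25.8, 26.5 and 22.9 CPM in control and 5.57, 3.64 and 4.86 in curcumol, also without overlap. On the log2 scale the change was -2.42 ± 0.14 (SE, adjusted p by edgeR = 8.16e-13). MUTYH, which removes adenine paired with oxidised guanine, fell by 2.26 (SE 0.15) and SMUG1, which removes uracil, by 2.08 (SE 0.10). MPG, which removes alkylated purines, fell by 1.94 (SE 0.14).

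UNG, the main uracil glycosylase of replicating cells, fell from 113 ± 7.09 to 44.0 ± 2.45 CPM (SD, n = 3), a log2 change of -1.36 ± 0.07 (SE). TDG, which removes thymine or uracil paired with guanine and takes part in the removal of methylated cytosine, moved the other way. TDG had 46.8, 51.8 and 49.9 CPM in control and 119, 127 and 135 in curcumol, so each curcumol library was over 2-fold above every control library. The groups differed by 1.36 ± 0.07 on the log2 scale (SE, n = 3, adjusted p by edgeR = 1.57e-13), and 0.85 with the GC offset.

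Of the NEIL glycosylases, which act on oxidised bases, NEIL2 had 17.9, 24.2 and 18.9 CPM in control and 18.1, 17.2 and 20.5 in curcumol, with overlap. It stood at -0.13 ± 0.12 on the log2 scale (SE, adjusted p by edgeR = 0.322), and at -0.40 under scaling by library totals, where it passed (adjusted p by edgeR = 0.00518). NEIL2 stood at 0.18 with the GC offset (adjusted p by edgeR = 0.144) and at 0.015 without control replicate 2, so its direction depends on the setting. NEIL3 fell by 0.25 (SE 0.08), a change that did not pass a test against 1.2-fold (adjusted p by edgeR = 0.342). NEIL1, with 15 to 57 counts per library, fell (edgeR adjusted p = 0.00375) from 2.37 to 3.07 CPM in control to 0.947 to 1.60 in curcumol and no longer passed with the GC offset (-0.41, adjusted p by edgeR = 0.2).

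Within each library TDG took a larger share of the 10 glycosylases' summed level per kb after curcumol. The share of TDG was 8.28%, 8.68% and 9.09% in control and 38.2%, 40.3% and 39.8% in curcumol, a mean of 8.69% ± 0.406 against 39.4% ± 1.13 (SD, n = 3). UNG held 31.0% ± 0.879 in control and 21.5% ± 0.654 in curcumol. Per kb, UNG was the most abundant glycosylase in control (54.4 ± 3.42 CPM per kb) and TDG in curcumol (39.0 ± 2.44 CPM per kb, beside 21.2 ± 1.18 for UNG). Such shares do not depend on the scaling between libraries. They were not adjusted for GC content, which was lowest in TDG (39.8%) among the 10 and 52.2% in UNG. With the GC offset TDG stood at 0.85 and UNG at -1.14 on the log2 scale, beside 1.36 and -1.36 without it.

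**Figure D2:**
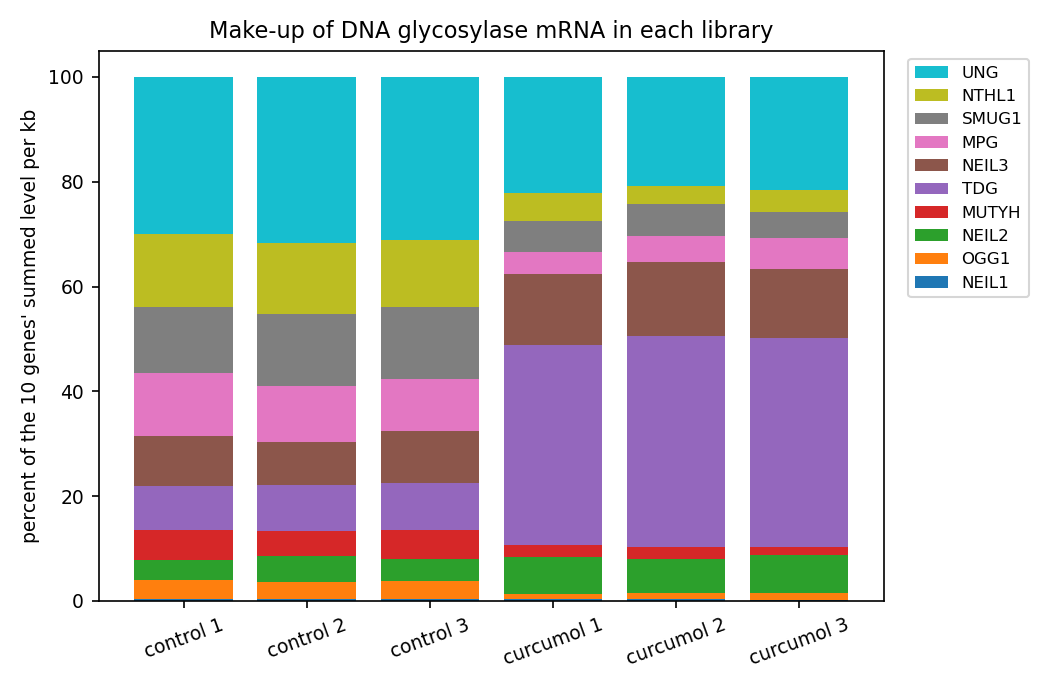
Each bar is 1 library, and its parts are the percentages of the summed level per kb of the 10 glycosylase genes. TDG widens from about 8.69% in the 3 control libraries to 39.4% in the 3 curcumol libraries, while UNG, SMUG1, NTHL1 and MPG narrow.

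Stretches before the start sites of TDG, which rose, and OGG1 and MPG, which fell, are shown. These are glycosylase genes that passed, changed at least 2-fold, and had 1 listed start and a long enough stretch free of exons. NTHL1, MUTYH and SMUG1, which fell further than MPG, did not meet all of this. The stretches come from RefSeq (GRCh38.p14), in which 32 of the 37 genes were found and NEIL2, SMUG1, POLB, XRCC5 and PRKDC were not matched. Each stretch is the longest part of the 250 bases before the start that holds no exon of GENCODE 29, read 5′ to 3′ on the strand of the gene. Those of TDG (chr12:103965709-103965803, plus strand), OGG1 (chr3:9749702-9749943, plus strand) and MPG (chr16:77975-78062, plus strand) are given below in lower case. The MPG stretch lies inside the GENCODE 29 span of MPG (chr16:77007-85853), so it is upstream of the RefSeq start used but not of that span. Capitals mark matches to motifs searched on both strands. These were the GC box, spelled GGGCGG, the CCAAT box, spelled as its name, and the E2F core, spelled TTGGCGC or else TTCCCGC. The E box was spelled CACGTG, the antioxidant response element TGACNNNGC and the heat shock element GAANNTTC.
TDG: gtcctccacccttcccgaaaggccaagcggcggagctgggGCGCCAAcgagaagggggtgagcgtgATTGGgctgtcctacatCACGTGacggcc
OGG1: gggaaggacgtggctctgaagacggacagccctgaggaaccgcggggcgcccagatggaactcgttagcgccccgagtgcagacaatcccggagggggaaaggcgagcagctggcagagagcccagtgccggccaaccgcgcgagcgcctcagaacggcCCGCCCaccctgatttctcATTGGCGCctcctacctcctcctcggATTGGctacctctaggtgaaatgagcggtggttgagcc
MPG: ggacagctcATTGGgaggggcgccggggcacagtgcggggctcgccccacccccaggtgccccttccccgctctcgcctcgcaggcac
In the full 250 bases TDG had 1 E2F core, 1 CCAAT box, 1 E box and 0 GC boxes. OGG1 had 1 GC box, 2 CCAAT boxes and 1 E2F core, of which 1 CCAAT box and the E2F core overlap. MPG had 3 GC boxes, 1 CCAAT box and 1 E box, and only its CCAAT box lies in the stretch shown. Over the repair genes with a window, a GC box was found before 17 of the 22 that fell and 2 of the 6 that rose, beside 67% of 10546 tested genes. An E2F core was found before 7 of the 22 and 2 of the 6, beside 12.6% of tested genes. An antioxidant response element was found before 4 of the 32 genes, beside 12.1% of tested genes, and a heat shock element before 1, beside 3.94%. A CCAAT box was found before 15 of the 32, beside 34.7% of tested genes, and an E box before 6, beside 8.92%. Where RefSeq lists several starts of a gene, the one listed at the top was used.

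Of the 7 genes of the later steps of base excision repair 5 fell and 2 rose, where 40.3% of all tested genes fell and 39.4% rose. LIG3 and XRCC1 encode a ligase and the scaffold that carries it to single-strand breaks. LIG3 had 60.0, 58.9 and 56.8 CPM in control and 19.3, 16.5 and 15.6 in curcumol, which puts every curcumol library far below control. Curcumol minus control was -1.77 ± 0.09 on the log2 scale (SE, n = 3, adjusted p by edgeR = 1.22e-13). XRCC1 had 21.8, 21.6 and 19.5 CPM in control and 7.17, 6.84 and 6.57 in curcumol, a log2 change of -1.61 ± 0.12 (SE, adjusted p by edgeR = 5.56e-11). The protein products of this pair bind each other, and both mRNAs fell.

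POLB, the polymerase that fills the gap, had 9.58, 9.54 and 9.24 CPM in control and 20.6, 20.6 and 21.0 in curcumol. Both groups were tight and did not overlap, and the log2 change was 1.13 ± 0.11 (SE, n = 3, adjusted p by edgeR = 4.34e-09), or 0.61 with the GC offset. PARP1 and PARP2, which sense strand breaks and make poly(ADP-ribose), moved apart. PARP2 had 41.2, 34.4 and 37.5 CPM in control and 49.7, 54.7 and 54.0 in curcumol, a log2 change of 0.49 ± 0.08 (SE, adjusted p by edgeR = 1.93e-05). PARP2 stood at 0.18 with the GC offset and 0.22 with library totals, and passed in both. PARP1 averaged 338 ± 11.6 CPM in control and 226 ± 10.4 in curcumol (SD, n = 3) and fell by 0.58 on the log2 scale (SE 0.06).

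APEX1, the main endonuclease at sites that have lost a base, was the most abundant of the 7 per kb in both groups (123 ± 1.71 and 87.8 ± 10.8 CPM per kb; SD, n = 3). It fell by 0.48 on the log2 scale (SE 0.07), and curcumol replicate 1 was higher (149 CPM) than the other 2 curcumol libraries (123 and 119). APEX2, a related nuclease, had 29.6, 29.5 and 29.4 CPM in control and 27.3, 22.6 and 23.6 in curcumol. Its fall of 0.27 (SE 0.09, adjusted p by edgeR = 0.0135) is the least certain of the 25. It was lost in DESeq2 (adjusted p = 0.0537), without curcumol replicate 2 (adjusted p by edgeR = 0.079) and in a test against 1.2-fold, and APEX2 stood at 0.02 with the GC offset.

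Of the 5 end-joining genes 2 fell, 2 rose and 1 did not pass, shares near those of all tested genes (40.3% lower and 39.4% higher). The Ku subunits XRCC6 (Ku70) and XRCC5 (Ku80) bind broken ends as a dimer and recruit the kinase encoded by PRKDC. XRCC6 had 614, 656 and 599 CPM in control and 682, 659.7 and 632 in curcumol, with overlap, and stood at 0.08 ± 0.06 on the log2 scale (SE, n = 3, adjusted p by edgeR = 0.198). It stood at -0.19 under scaling by library totals and at 0.17 with the GC offset, and passed in both (adjusted p by edgeR = 0.00241 and 0.00379), so its direction depends on the scaling. XRCC5 had 709.7, 771 and 743 CPM in control and 423, 415 and 423 in curcumol, without overlap. On the log2 scale the change was -0.82 ± 0.05 (SE, adjusted p by edgeR = 6.91e-12). PRKDC had 527, 552 and 535 CPM in control and 197, 210.0 and 191 in curcumol, and every curcumol library was over 2-fold below every control library. The groups differed by -1.43 ± 0.06 on the log2 scale (SE, adjusted p by edgeR = 1.30e-15).

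XRCC4 and LIG4, which form the ligase complex that seals the ends, rose. XRCC4 had 14.5, 13.8 and 17.9 CPM in control and 37.7, 39.8 and 39.7 in curcumol, with each curcumol library over 2-fold above every control library. Curcumol minus control was 1.34 ± 0.10 on the log2 scale (SE, n = 3, adjusted p by edgeR = 9.32e-11), or 0.62 with the GC offset. LIG4 had 18.4, 14.8 and 18.1 CPM in control and 26.3, 31.0 and 30.3 in curcumol, a log2 change of 0.77 ± 0.11 (SE, adjusted p by edgeR = 1.07e-06). With the GC offset LIG4 stood at 0.16 and did not pass (adjusted p by edgeR = 0.13). The Ku genes were far more abundant than the ligase genes per kb, with XRCC6 at 243 ± 9.38 and XRCC4 at 23.9 ± 0.708 CPM per kb in curcumol (SD, n = 3).

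**Figure D3:**
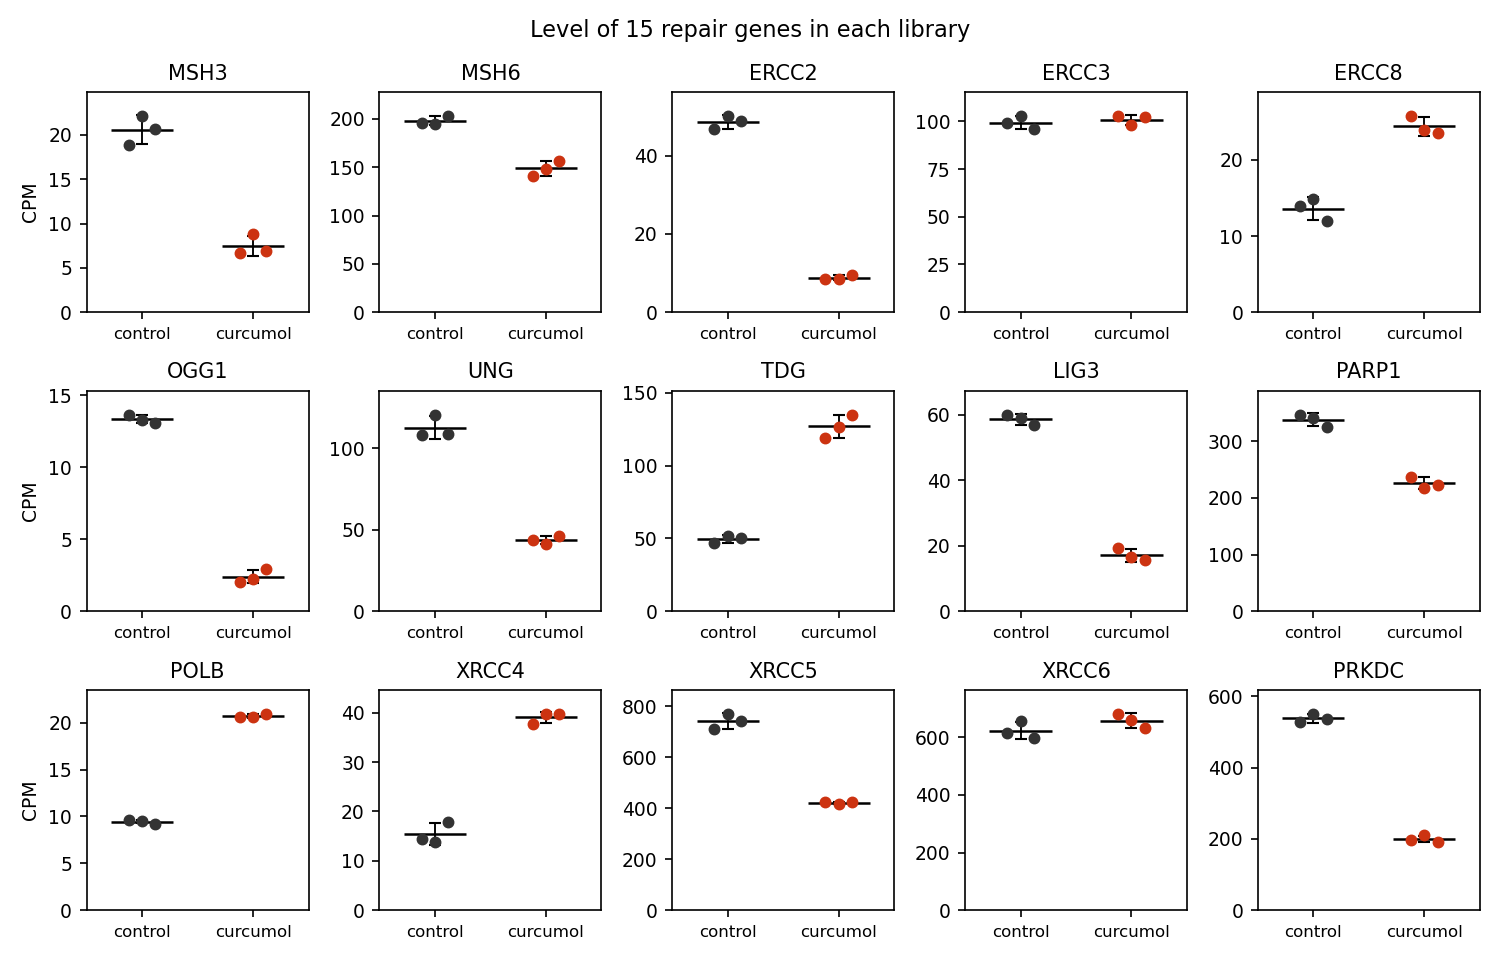
Each panel is 1 gene, each point 1 library, the horizontal line the group mean and the bar its SD (n = 3), with CPM on a vertical axis that starts at 0. OGG1, LIG3 and PRKDC lie lower and TDG, POLB and XRCC4 higher in all curcumol libraries, and the libraries of ERCC3 and XRCC6 overlap.

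In ratios of 2 genes within a library the scaling between libraries cancels. A trend with GC content, described below, need not cancel, and the ratios were not adjusted for it. The pairs join subunits of 1 complex, alternative partners of 1 protein, or related enzymes. The counts of 10 such pairs were compared. The log2 ratio of ERCC3 to ERCC2 differed most, by 2.49 ± 0.06 (curcumol minus control; SE, n = 3), from 1.08, 1.04 and 0.97 in control to 3.58, 3.55 and 3.43 in curcumol. The ratio of MSH6 to MSH3 was higher in curcumol by 1.05 ± 0.15, and that of PARP1 to PARP2 differed by -1.07 ± 0.11 on the log2 scale. The ratio of XRCC5 to XRCC6 was 0.21, 0.23 and 0.31 in control and -0.69, -0.67 and -0.58 in curcumol, a difference of -0.90 ± 0.05. That of LIG4 to XRCC4 differed by -0.58 ± 0.11, with no overlap between the groups.

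The pair LIG3 and XRCC1 differed by -0.17 ± 0.07 and APEX1 and APEX2 by -0.22 ± 0.04, while DDB1 to DDB2 differed by 0.37 ± 0.11 (SE, n = 3). The ratios of PMS2 to PMS1 (-0.23 ± 0.16) and ERCC6 to ERCC8 (-0.11 ± 0.19) overlapped between the groups. In the other 8 pairs the groups did not overlap, and each had p = 0.1 in a two-sided exact permutation test, the smallest p that 3 against 3 libraries can give (0.125 after Benjamini-Hochberg adjustment over the 10 pairs). No pair could therefore pass 0.05 in this design.

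**Figure D4:**
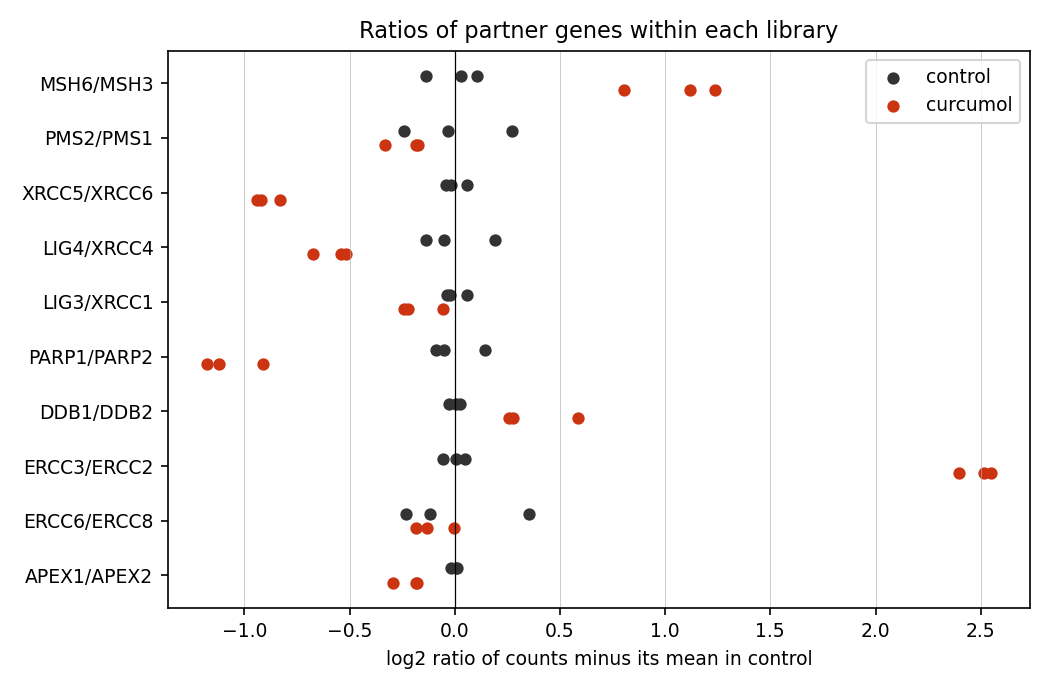
Each row is a pair of genes, each point 1 library, and the horizontal axis is the log2 ratio of their counts minus its mean over the 3 control libraries. ERCC3/ERCC2 moves furthest to the right (2.49) and PARP1/PARP2 furthest to the left (-1.07), while PMS2/PMS1 and ERCC6/ERCC8 overlap with control.

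Other genes of the same routes, 46 in all, were compared in the same fit. Of the 44 with enough counts 23 fell, 8 rose and 13 did not pass, with a median log2 change of -0.25, beside 40.3% lower, 39.4% higher and a median of -0.02 over all tested genes. Of 15 genes that excise the strand and resynthesise it in mismatch repair, 10 fell and 5 did not pass (edgeR). The largest fall among them was that of RFC4, a subunit of the clamp loader, from 44.9, 41.5 and 43.2 CPM in control to 8.46, 8.41 and 8.84 in curcumol, a log2 change of -2.33 ± 0.10 (SE, adjusted p by edgeR = 4.39e-15).

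Of 15 tested partners in nucleotide excision repair 5 rose and 6 fell, shares near those of all tested genes. MNAT1, a subunit of the kinase module of TFIIH, rose most (1.26 ± 0.10, SE), and UVSSA, which acts with the Cockayne syndrome proteins, fell most (-0.97 ± 0.11). Of 8 partners in base excision and single-strand break repair 2 rose and 4 fell, where 39.4% of all tested genes rose and 40.3% fell. Among these 8, APTX, which removes AMP from stalled ligation ends, rose most (0.76 ± 0.08). Of 6 tested end-joining partners 1 rose and 3 fell, beside the same shares of all tested genes. The riser was TDP2, which removes trapped topoisomerase from DNA ends (1.48 ± 0.07), and the largest fall was that of the polymerase POLM (-1.64 ± 0.17). NHEJ1 (1, 4 and 1 counts in control, 10, 9 and 15 in curcumol) and GTF2H4 (0 to 7 counts) had too few counts to be tested.

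The direction of change went with base composition. Among the 37 genes the log2 change had a Spearman rho of -0.61 and a Pearson r of -0.65 with the GC content of the joined exons, across genes that share the same libraries, beside a rho of -0.34 over 15154 tested genes. All 7 genes that rose lie in the lowest tertile of GC content (23.1% to 44.0%), among 15 repair genes of which 7 fell, where 56.1% of all tested genes of that tertile rose and 23.7% fell. Of 13 repair genes in the middle tertile 10 fell and 3 did not pass (39.2% of all genes of that tertile fell and 38.9% rose), and of 9 in the highest tertile 8 fell and 1 did not pass (58.1% of all fell and 23% rose). The mismatch repair genes are all in the lowest tertile, where the median of all genes was 0.47, and yet fell. With an offset that removes the trend with GC content in each library, 24 of the 37 fell and 6 rose, where 79.3% of all genes passed, 40.9% of genes lower and 38.4% higher. OGG1 then stood at -2.24, ERCC2 at -1.89, NTHL1 at -1.68 and MSH3 at -1.85, while MPG went from -1.94 to -1.18 and PMS1 from -0.77 to -1.32. The cause of the trend with GC content was not tested.

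**Figure D5:**
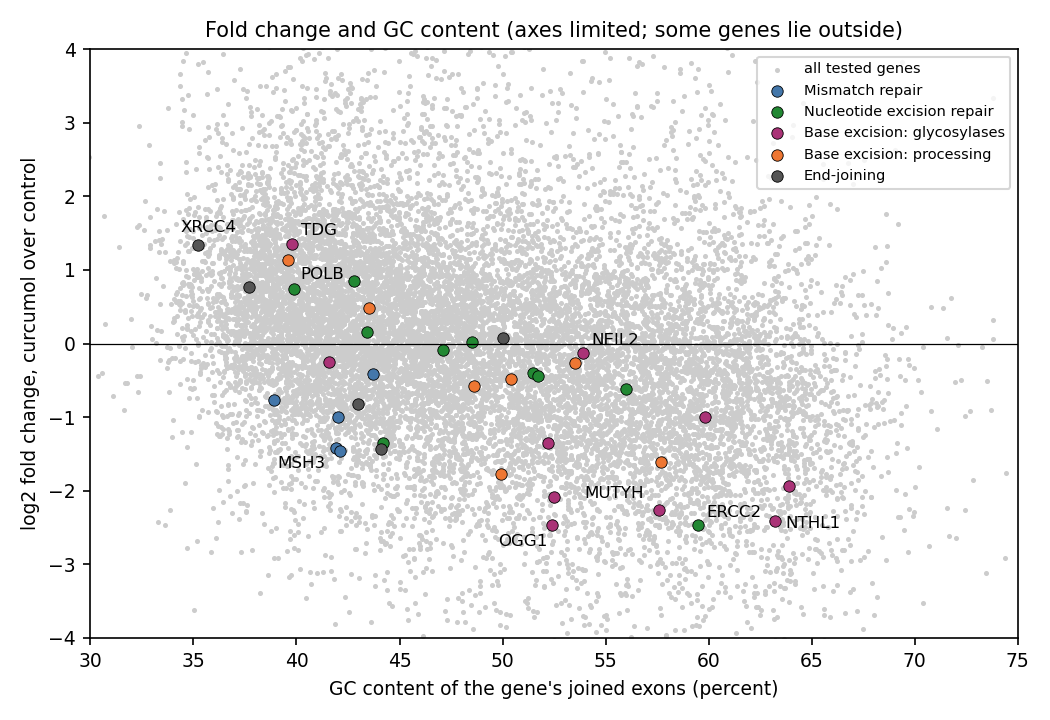
Grey points are all tested genes and coloured points the 37 repair genes by role, with the GC content of joined exons in percent on the horizontal axis and the log2 change of curcumol over control on the vertical axis. The risers TDG, XRCC4 and POLB lie at a GC content of 35.2% to 39.8%, and NTHL1 (63.2%) and ERCC2 (59.5%) lie low on the right. Some genes lie outside the axes.

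Leading genes are located by their GENCODE 29 spans on GRCh38. For mismatch and nucleotide excision repair, the annotation places MSH3 (ENSG00000113318) at chr5:80654648-80876460 on the plus strand and ERCC2 (ENSG00000104884) at chr19:45349837-45370918 on the minus strand. Of the glycosylase genes, the annotation places OGG1 (ENSG00000114026) at chr3:9749944-9788219 on the plus strand, NTHL1 (ENSG00000065057) at chr16:2039815-2047866 on the minus strand and TDG (ENSG00000139372) at chr12:103965804-103988874 on the plus strand. The annotation places the ligase gene LIG3 (ENSG00000005156) at chr17:34980494-35009743 on the plus strand. Of the end-joining genes it places XRCC4 (ENSG00000152422) at chr5:83077498-83353787 on the plus strand, XRCC5 (ENSG00000079246) at chr2:216107464-216206303 on the plus strand and XRCC6 (ENSG00000196419) at chr22:41621119-41664048 on the plus strand.

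Several repair genes share exons with a neighbour, and whether counting used strand is unknown, which leaves reads from shared bases unassigned. The overlaps with a gene on the other strand cover 29.1% of the joined exons of LIG3 (with RFFL), 28.6% of ERCC1 (with CD3EAP), 27.3% of MPG (with NPRL3), 26.4% of NEIL1 (with MAN2C1), 25.0% of OGG1 (with CAMK1) and 23.8% of XPC (with AC093495.1). They cover 16.5% of NTHL1 (with TSC2), 16.2% of MSH6 (with FBXO11), 15.5% of XRCC1 (with L34079.3, which had 0 counts) and 14.1% of MUTYH (with TOE1). Summed over 3 libraries, CAMK1 went from 314 to 44 counts, NPRL3 from 3162 to 506, MAN2C1 from 1878 to 264 and TSC2 from 3376 to 1073 where the repair gene fell, while FBXO11 went from 2940 to 3456 beside MSH6 and RFFL from 1466 to 2838 beside LIG3, which also fell. The part of these overlaps in the results was not tested.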

How the data were processed

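Per the labels' protocols, the 6 libraries came from poly(A) RNA and were read from both ends on an Illumina machine. The values deposited by the authors are unnormalized read counts, 1 integer for each Ensembl gene and library. Per the submitters' processing notes the reads were placed on GRCh38. The aligner, the counting tool, its annotation and its use of strand are not stated. All 58735 identifiers are in GENCODE 29, which gave positions, joined exons, GC content and the length of the longest APPRIS principal transcript for levels per kb. Libraries held 16962012 to 17827433 counts, so with 3 libraries per group the replicate number limits precision for abundant genes and counting error for genes such as NEIL1. Within groups, log2 CPM correlated at 0.988 to 0.992, and every pair differed by more than sampling noise (3.68 to 8.82 for chi-square over its degrees of freedom), so each library was counted once.

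Genes were filtered with filterByExpr (15160 kept), scaled by TMM and tested with the two-sided quasi-likelihood test of edgeR 4.0.16 (R 4.3.3). P-values were adjusted over all kept genes by the Benjamini-Hochberg method and called below 0.05. A standard error was taken as the size of the log2 change over the root of F. Ratios within a library used a pseudocount of 0.5. Alternatives were DESeq2 1.42.0, limma-voom (limma 3.58.1), other scalings and filters, the replicate number as a block, an offset for GC content (spline, 5 degrees of freedom), a test against 1.2-fold and each library left out. The code was tested on simulated data.

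The genes and lists were chosen with earlier results of these data known. Values per library are given, in each role, for up to 2 members with the largest rise, up to 2 with the largest fall and the one with the largest p, and other members by their change. TDG's and other printed stretches and the genes shown in plots were chosen after values were seen. Of the 46 partner genes, the largest rise and fall in each route are named, except for 1 gene that is not reported here.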

Additional observations from a re-analysis of the deposited data

How the results depend on the processing

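The count of repair genes that passed stayed between 30 and 36 under DESeq2, limma-voom, other scalings and filters, the replicate block, the GC offset and a test against 1.2-fold, beside 32 in the edgeR fit reported. Over all tested genes the share that passed was 79.7% in that fit, 80.4% with library totals and 79.3% with the GC offset. Leaving out each library gave 31 to 32 repair genes, and only APEX2 was lost, without curcumol replicate 2. The stricter filter kept 36 of the 37 genes and dropped NEIL1. Calls of single genes moved mostly with library totals (4 of 37 repair genes) and the GC offset (6 of 37), and limma-voom and DESeq2-type size factors moved none. Library totals turned the log2 change of ERCC3 to -0.24, XRCC6 to -0.19, RPA2 to -0.18, CETN2 to -0.005, XAB2 to -0.23 and RBX1 to -0.20. All of these but CETN2 passed there. The GC offset turned APEX2 to 0.02, CETN2 to -0.061, GTF2H5 to -0.43, CCNH to -0.39, FEN1 to 0.12, PARG to -0.21 and PAXX to 0.08. There GTF2H5, CCNH and PARG passed, and APEX2, CETN2, FEN1 and PAXX did not. Also without passing, XPA turned to -0.11 with library totals and -0.15 with the GC offset, and NEIL2 to 0.18 with the GC offset and 0.015 without control replicate 2. ERCC3 was -0.029 without the low-count filter and -0.015 without control replicate 3. The cause was not tested. The difference in the ERCC6/ERCC8 log2 ratio ranged from -0.22 to 0.07 when 1 library was left out. Over the 15160 genes kept, 5967 rose and 6109 fell with TMM, and 4818 and 7372 with library totals. DESeq2, run without the low-count filter, gave 6457 higher and 5847 lower over 30877 genes. The labels number replicates 1 to 3 in both groups, but same-numbered libraries did not deviate together (correlations of 0.0238, -0.0123 and 0.0751). With the replicate number as a block, 32 repair genes, 32 partner genes (31 without it) and 12086 of all genes passed, and no repair gene changed its call. Depth limits NEIL1 and ERCC5, which rest on few counts.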
